A study of Mus musculus with 6 samples.

Results

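The genes described here are 36 enzymes and closely tied factors of fatty acid, triglyceride and sterol synthesis, found in the table by gene symbol. All 36 were present among the 24532 genes of the deposited table, and all 36 passed the filter on low counts that left 14109 genes for testing. By role, 12 belong to the fatty acid branch, 8 to the triglyceride branch and 16 to the sterol branch. Poly(A)-selected, strand-preserving RNA libraries were made from gastrocnemius, a calf muscle, of 12-week-old C57BL/6 mice. The 3 knockout mice carried floxed USP21 alleles with Ckmm-Cre, in which the promoter of muscle creatine kinase drives the recombinase. The 3 control mice carried the floxed alleles without Cre, and the labels enter their genotype as Litter. Usp21 encodes a deubiquitinase. The labels do not say which mice were littermates, nor which exons are floxed. Log2 fold changes are given as knockout minus control, and gene positions are those of RefSeq on build GRCm38.p6.

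Fatty acid synthesis joins acetyl units into palmitate, which elongases lengthen and desaturases make unsaturated. Triglyceride synthesis attaches such fatty acids to glycerol phosphate in a short series of acyl transfers with 1 removal of phosphate. The sterol branch runs from acetyl-CoA through mevalonate, isoprenoids and squalene to cholesterol. In liver and fat these routes are driven by the sterol regulatory element-binding proteins (SREBP), SREBP-1c mainly for fatty acids and SREBP-2 mainly for sterols. Adult skeletal muscle makes little fat compared with those tissues and mostly takes up and burns fatty acids.

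Promoter windows of 300 bases, from 250 before to 50 after each annotated start, were taken from RefSeq on build GRCm38.p6 and were found for 28 of the 36 genes. They were searched on both strands for the sterol regulatory element TCACNCCAC, the CCAAT box CCAAT and the E-box CACGTG. No match of one motif overlapped a match of another in these 28 genes. Scd1, Scd2, Fads1, Dgat1, Dgat2, Fdps, Fdft1 and Sqle had no window, and the motif counts do not cover them. A CCAAT box stood in 12 of 13 sterol genes, 6 of 9 fatty acid genes and 3 of 6 triglyceride genes, against 41.1% of all 27025 genes with a window. The sterol regulatory element stood in 1 of the 28, against 1.44% of all genes, and an E-box in 6 of 28, against 8.09%. A match describes letters only, and a window without a match says nothing of whether a factor binds. Hmgcs1, which holds the element, and Mvk, with 5 CCAAT boxes, are shown as examples from the sterol branch, and were chosen after the search. Capitals mark the motifs found on either strand.
Hmgcs1 (chr13:119690101-119690400, plus strand): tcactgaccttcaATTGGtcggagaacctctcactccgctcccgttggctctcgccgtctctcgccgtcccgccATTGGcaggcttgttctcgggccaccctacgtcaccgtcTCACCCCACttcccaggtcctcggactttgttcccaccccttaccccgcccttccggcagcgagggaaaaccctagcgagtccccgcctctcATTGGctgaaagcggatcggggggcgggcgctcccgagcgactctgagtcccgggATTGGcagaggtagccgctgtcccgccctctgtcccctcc
Mvk (chr5:114444019-114444318, plus strand): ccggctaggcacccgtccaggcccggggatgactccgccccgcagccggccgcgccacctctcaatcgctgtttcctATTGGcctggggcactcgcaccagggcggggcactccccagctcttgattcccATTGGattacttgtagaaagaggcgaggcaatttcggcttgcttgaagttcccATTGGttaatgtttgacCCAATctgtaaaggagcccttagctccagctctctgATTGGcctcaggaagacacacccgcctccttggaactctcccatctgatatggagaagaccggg

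The 4 genes with a motif and the smallest p-values for the difference between the groups are shown for comparison, again with motifs in capitals. Of the 3 windows of Lpin2, the one given holds an E-box close to its start and another holds 3 CCAAT boxes. The window of Elovl5 holds an E-box and 2 CCAAT boxes.
Lpin2 (chr17:71183282-71183581, plus strand): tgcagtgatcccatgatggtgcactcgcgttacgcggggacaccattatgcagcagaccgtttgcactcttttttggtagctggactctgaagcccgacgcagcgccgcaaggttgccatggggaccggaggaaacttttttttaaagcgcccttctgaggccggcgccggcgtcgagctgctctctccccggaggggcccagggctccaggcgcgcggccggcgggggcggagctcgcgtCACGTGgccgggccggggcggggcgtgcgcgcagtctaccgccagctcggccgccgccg
Elovl1 (chr4:118427843-118428142, plus strand): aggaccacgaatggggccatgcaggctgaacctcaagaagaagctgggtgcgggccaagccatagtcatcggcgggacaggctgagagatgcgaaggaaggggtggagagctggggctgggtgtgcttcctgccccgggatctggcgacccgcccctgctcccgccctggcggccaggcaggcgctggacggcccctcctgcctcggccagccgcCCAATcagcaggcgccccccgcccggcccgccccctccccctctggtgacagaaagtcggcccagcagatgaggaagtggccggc
Pnpla3 (chr15:84167566-84167865, plus strand): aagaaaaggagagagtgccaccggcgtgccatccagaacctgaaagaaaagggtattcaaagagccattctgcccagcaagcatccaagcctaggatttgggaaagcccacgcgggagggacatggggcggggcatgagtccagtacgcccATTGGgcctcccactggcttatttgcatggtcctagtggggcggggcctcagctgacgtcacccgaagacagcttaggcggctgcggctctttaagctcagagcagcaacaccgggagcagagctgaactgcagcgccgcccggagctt
Elovl5 (chr9:77917115-77917414, plus strand): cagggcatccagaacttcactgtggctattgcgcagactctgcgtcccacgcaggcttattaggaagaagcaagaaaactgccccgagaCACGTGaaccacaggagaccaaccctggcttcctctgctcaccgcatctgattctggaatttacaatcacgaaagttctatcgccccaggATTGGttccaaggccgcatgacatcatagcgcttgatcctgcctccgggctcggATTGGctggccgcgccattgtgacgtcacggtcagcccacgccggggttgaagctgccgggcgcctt

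The libraries carried skeletal muscle RNA, since the 10 defining skeletal muscle genes, Ckm among them, each averaged at least 852 FPKM. FPKM are fragments per kilobase of transcript and per 1e+06 fragments, as deposited. Which muscle was sampled is known from the labels only. Total counts ranged from 53906493 to 65425324 in knockouts and from 48658436 to 67332846 in controls. Usp21 averaged 7.91 ± 1.02 CPM (counts per 1e+06, TMM-scaled) in knockout and 19.2 ± 0.0762 CPM in control muscle (SD, n = 3 each), a log2 fold change of -1.28 (edgeR adjusted p = 0.0355). Leaving out a single library ended the call for each control (adjusted p 0.186, 0.129 and 0.0944 without controls 1 to 3) and for knockout 2 (0.154), as did the replicate block (0.200). Over all genes, 5 were higher and 3 lower by edgeR. Control 3 stood apart in slow fibre markers, and knockout 2 and control 3 in 7 of 11 adipocyte markers, as described after the enzymes. The labels do not tell littermates apart, so relatedness was not taken into account. With 1 library per mouse, a p-value speaks of the spread among these samples, in which mouse and technical variation cannot be separated.

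Levels per gene length, as the deposited FPKM, spanned a wide range within each branch. Averaged over the 6 libraries, the fatty acid branch ran from 0.238 FPKM for Elovl6 to 106 FPKM for Me1, the malic enzyme that supplies NADPH for lipid synthesis. The triglyceride branch ran from 0.932 FPKM for Lpin2 to 79.8 FPKM for Lpin1. The sterol branch lay in a narrower band, from 0.413 FPKM for Sqle, squalene epoxidase, to 19.7 FPKM for Fdft1, squalene synthase. Median levels were 6.03 FPKM for the fatty acid, 4.04 FPKM for the triglyceride and 3.73 FPKM for the sterol branch, against 4.14 FPKM over all tested genes. Fasn, the fatty acid synthase itself, stood at 3.94 FPKM and Acaca, acetyl-CoA carboxylase, at 2.80 FPKM. Acacb, the carboxylase isoform known for restraining fatty acid oxidation in muscle and not one of the 36, stood at 52.6 FPKM.

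**Figure D1:**
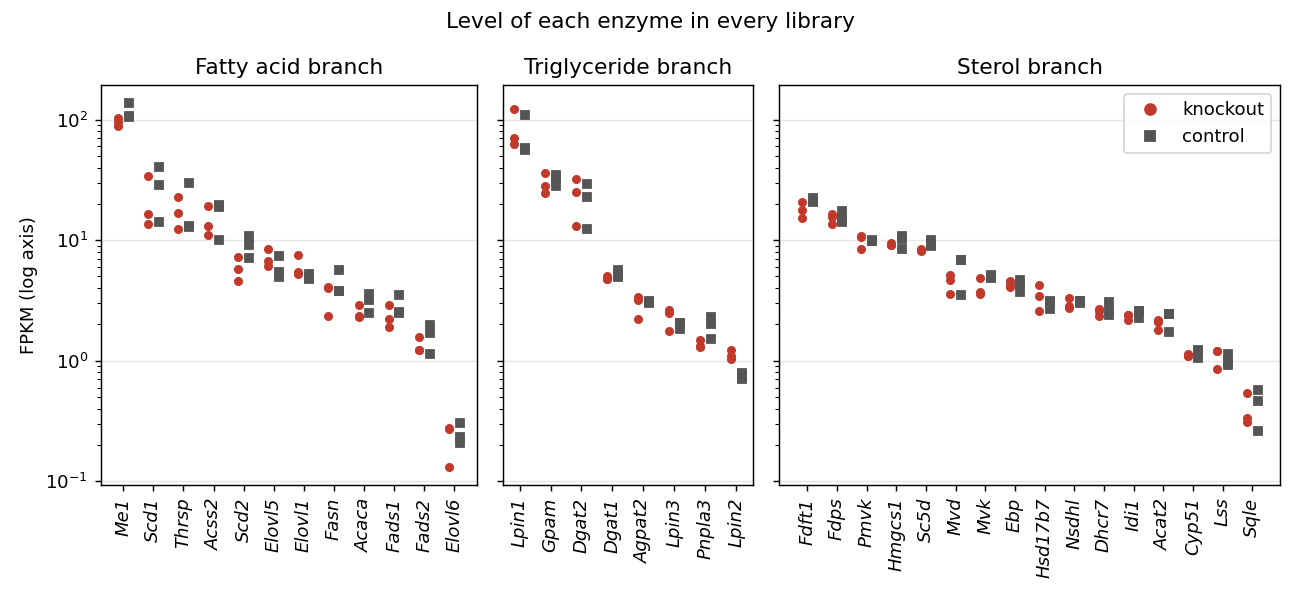
Deposited FPKM (log axis) of the 36 genes in each library, ordered by mean level within each branch, with knockout libraries as circles left of control libraries as squares. Me1 and Lpin1 top the fatty acid and triglyceride branches at 106 and 79.8 FPKM, and the knockout and control points of most genes intermingle.

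No enzyme passed the test across all genes. At an edgeR adjusted p under 0.05, 0 of 36 were higher and 0 lower in knockout muscle, against a background of 0.0567% of tested genes called in either direction. Before adjustment, p lay under 0.05 for 2 higher enzymes and 1 lower one, that is 8.33% of the 36 against 11.6% of all tested genes. The groups did not overlap in 3 of the 36 (8.33%), against 17.3% of all tested genes. Both shares lay below the background. In all, 23 log2 fold changes were negative and 13 positive, with a median of -0.038 against -0.0037 over all genes. DESeq2 on the same counts called 1 of the 36, Lpin2, against a background of 2.03% of the genes to which it gave an adjusted p. Limma-voom called 0. In bulk muscle, fewer cells of a type and less RNA per cell cannot be told apart.

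Lpin2, one of the lipins that remove phosphate from phosphatidate to give diacylglycerol, had the smallest p of the 36 (Entrez 64898; chromosome 17, 71183532 to 71249818). Its level was 7.16, 6.90 and 6.06 CPM in knockouts 1 to 3, against 3.99, 4.32 and 4.48 CPM in controls 1 to 3. Every knockout library stood above every control library. Lpin2 averaged 6.71 ± 0.576 CPM in knockout and 4.26 ± 0.250 CPM in control muscle (SD, n = 3 each), a log2 fold change of 0.65 (SE 0.13, 95% interval 0.36 to 0.95, edgeR adjusted p = 0.224). DESeq2 gave an adjusted p of 0.00796, and over all alternatives the adjusted p ran from 0.00796 to 0.763 while the log2 fold change stayed between 0.60 and 0.72. Lpin2 was thus positive under each alternative run and called by DESeq2 alone.

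The other lipins and the acyltransferases of the triglyceride branch did not pass. Lpin1 (Entrez 14245; chromosome 12, 16535669 to 16653903), the muscle lipin, which also acts as a transcriptional coactivator, was uneven among mice. It measured 402, 738 and 355 CPM in knockouts 1 to 3, against 309, 580 and 333 CPM in controls 1 to 3. Library 2 was the highest of each group, and the groups overlapped (log2 fold change 0.29, SE 0.33, edgeR adjusted p = 0.774). It turned to -0.11 without knockout 2 and to -0.23 without knockout 2 and control 3 together. Lpin3 averaged 8.31 ± 1.42 CPM in knockout and 6.82 ± 0.662 CPM in control muscle (SD, n = 3 each), a log2 fold change of 0.29 (SE 0.16, edgeR adjusted p = 0.533).

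Gpam, the mitochondrial acyltransferase that begins glycerolipid synthesis, measured 110, 102 and 141 CPM in knockouts 1 to 3, against 130, 120 and 112 CPM in controls 1 to 3 (Entrez 14732; chromosome 19, 55067635 to 55127319). The groups overlapped, with a log2 fold change of -0.033 (SE 0.13, 95% interval -0.34 to 0.28, edgeR adjusted p = 0.944). Agpat2, which adds the second acyl chain, averaged 4.78 ± 0.840 CPM in knockout and 4.79 ± 0.144 CPM in control muscle (SD, n = 3 each). Dgat1, a diacylglycerol acyltransferase of the last step, averaged 9.82 ± 0.658 and 10.2 ± 1.03 CPM in knockout and control muscle. For Gpam, Agpat2 and Dgat1 the 95% interval lay within a 1.5-fold change either way. Dgat2, which catalyses the same last step, was wider, at 57.3, 31.9 and 73.1 CPM in knockouts 1 to 3, against 65.0, 49.2 and 28.6 CPM in controls 1 to 3. Its log2 fold change of 0.18 had a 95% interval of -0.65 to 1.02, and it turned to -0.093 at the lowest when single libraries were left out. Pnpla3, a lipid droplet acyl hydrolase that SREBP-1c and feeding induce in liver, averaged 6.69 ± 0.766 CPM in knockout and 8.94 ± 2.10 CPM in control muscle (log2 fold change -0.42, SE 0.19, edgeR adjusted p = 0.442).

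**Figure D2:**
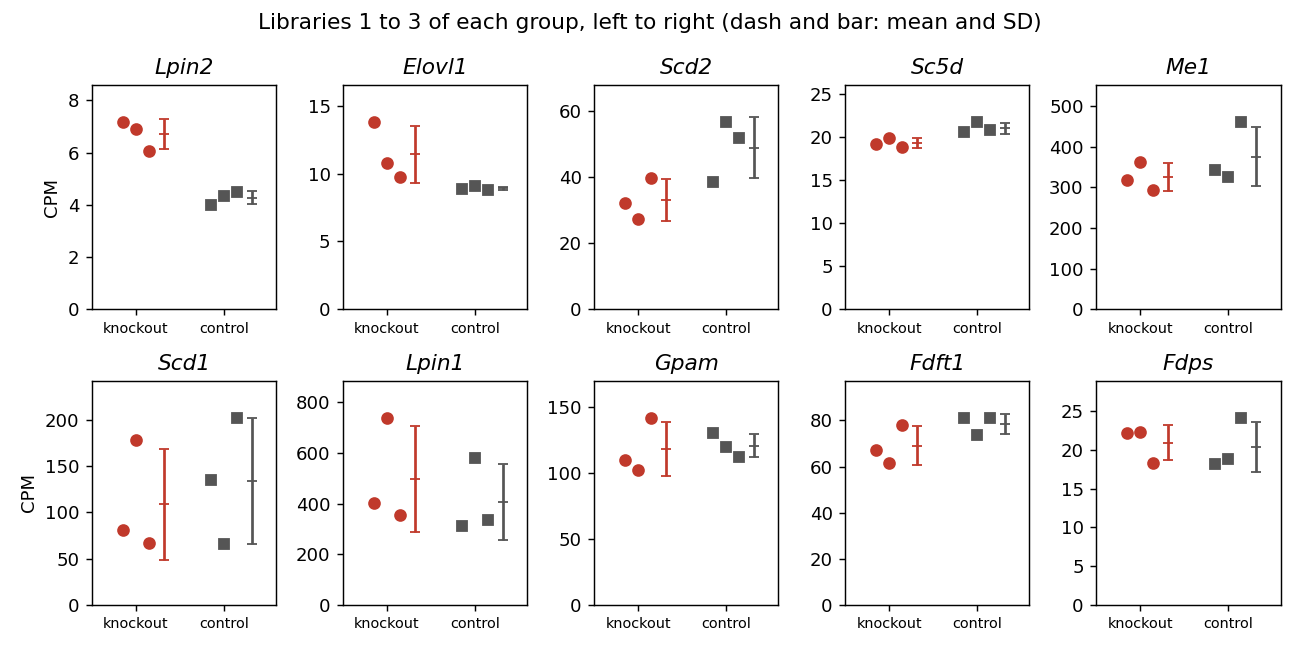
CPM of 10 enzymes in libraries 1 to 3 of the knockout (circles, left) and control (squares, right) groups, with mean and SD beside the points and axes from 0. Lpin2, Elovl1 and Sc5d are the 3 whose groups do not overlap, while Scd1 and Lpin1 vary widely within both groups.

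In the fatty acid branch, 10 of 12 genes were negative and 2 positive by the sign of the fold change, with a median of -0.19 and none called. Of all tested genes, 50.7% were negative. Without control 3 the branch median was -0.057, with Scd1 and Thrsp positive. Scd2, a stearoyl-CoA desaturase that makes monounsaturated fatty acids, had the smallest p of the branch (Entrez 20250; chromosome 19, 44293676 to 44306864). It measured 32.1, 27.2 and 39.8 CPM in knockouts 1 to 3, against 38.6, 56.6 and 51.7 CPM in controls 1 to 3. Knockout 3 lay just above control 1, so the groups overlapped. Scd2 differed by -0.57 on the log2 scale (SE 0.18, 95% interval -0.99 to -0.15, edgeR adjusted p = 0.363), and the adjusted p ran from 0.0930 to 0.763 over the alternatives.

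Scd1, its more abundant paralog in these libraries, measured 80.6, 177 and 67.2 CPM in knockouts 1 to 3, against 135, 65.5 and 202 CPM in controls 1 to 3 (Entrez 20249; chromosome 19, 44394450 to 44407709). Values within each group differed by more than the groups did, and the log2 fold change of -0.31 had an SE of 0.47 (edgeR adjusted p = 0.841). Without control 3 it turned to 0.11, and without knockout 2 it was -0.86. The transcripts of the pair are largely distinct: 4.56% of the 50-base words of Scd1 and 3.97% of those of Scd2 occur in another gene.

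Elovl1, an elongase of very long saturated chains, was among the 2 positive members of the branch (Entrez 54325; chromosome 4, 118426874 to 118432953). It measured 13.8, 10.8 and 9.75 CPM in knockouts 1 to 3, against 8.86, 9.08 and 8.84 CPM in controls 1 to 3. All knockout libraries lay above all controls, although knockout 3 did so narrowly (log2 fold change 0.36, SE 0.14, edgeR adjusted p = 0.397). Without knockout 1 the log2 fold change of Elovl1 was 0.20. Elovl5, which lengthens polyunsaturated chains, was the other, at 20.5 ± 3.33 CPM in knockout and 16.3 ± 2.87 CPM in control muscle (SD, n = 3 each; 0.33, SE 0.16, edgeR adjusted p = 0.481). Elovl6, the elongase that takes palmitate to stearate, was scarce, with 43 to 107 counts in knockout and 61 to 112 counts in control libraries (-0.063, SE 0.32).

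Me1 (Entrez 17436; chromosome 9, 86581363 to 86695914) measured 319, 363 and 294 CPM in knockouts 1 to 3, against 343, 324 and 460 CPM in controls 1 to 3. Control 3 stood above the other libraries, the groups overlapped, and Me1 differed by -0.21 on the log2 scale (SE 0.15, edgeR adjusted p = 0.635), or by -0.038 without control 3. Acaca, the first committed enzyme, averaged 23.6 ± 2.84 CPM in knockout and 27.4 ± 4.01 CPM in control muscle (SD, n = 3 each; -0.21, SE 0.14). Fasn averaged 36.2 ± 10.9 and 43.5 ± 12.6 CPM in knockout and control muscle (-0.27, SE 0.27). The Fasn log2 fold change was -0.0020 without control 3 and -0.043 without knockout 1. The desaturases of polyunsaturated fatty acids, Fads1 and Fads2, had log2 fold changes of -0.21 (SE 0.18) and -0.17 (SE 0.24). Acss2, which activates acetate, averaged 42.4 ± 11.5 CPM in knockout and 45.0 ± 13.4 CPM in control muscle (-0.086, SE 0.26). Thrsp, the lipogenic protein Spot 14, averaged 19.9 ± 6.63 and 20.5 ± 11.4 CPM in knockout and control muscle (-0.042, SE 0.39), and was at 0.52 without control 3.

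**Figure D3:**
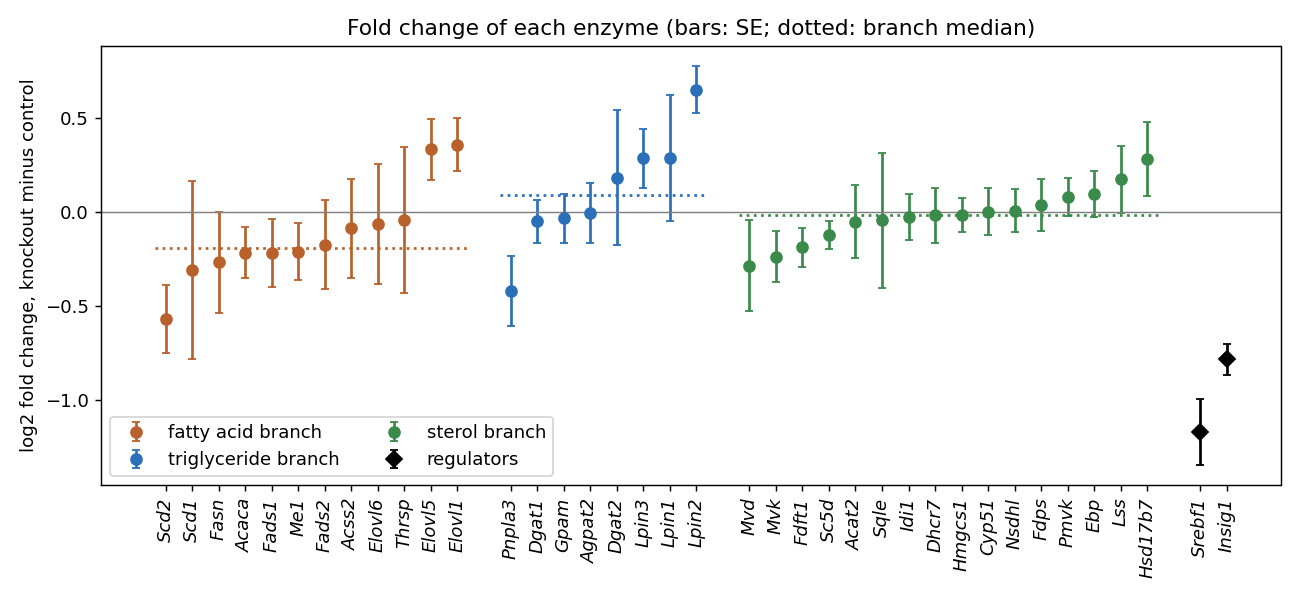
Log2 fold change (knockout minus control, edgeR) of the 36 genes with SE bars, ordered within each branch, dotted lines at the branch medians of -0.19, 0.091 and -0.015, and the regulators Srebf1 and Insig1 at the right. The sterol genes lie between -0.28 and 0.28, and Insig1 and Srebf1 lie below every enzyme.

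The sterol branch was the narrowest in fold change. Its 16 members ran from -0.28 to 0.28 on the log2 scale, 7 positive and 9 negative, with a median of -0.015 and a median absolute value of 0.066, against 0.15 over all tested genes. In 12 of the 16 the 95% interval lay within a 1.5-fold change either way, against 2 of 12 fatty acid genes, 3 of 8 triglyceride genes and 56.8% of all tested genes. The spread among mice of one group was also smaller. The median coefficient of variation was 9.87% in the sterol branch, 18.9% in the fatty acid branch and 12.9% in the triglyceride branch, against 11.6% over all tested genes. These are descriptions of the lists, and the difference between branches was not tested.

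Through mevalonate, Hmgcs1, the synthase of the cytosolic HMG-CoA used for sterols, averaged 34.3 ± 0.959 CPM in knockout and 34.6 ± 3.33 CPM in control muscle (SD, n = 3 each). Its log2 fold change was -0.014 with a 95% interval of -0.22 to 0.20. Acat2, the thiolase that precedes it, was at -0.050 (SE 0.20), but 39.1% of its 50-base words occur in Acat3, so reads of the pair may have been divided between them. Mevalonate kinase (Mvk) averaged 7.15 ± 1.06 and 8.42 ± 0.587 CPM in knockout and control muscle (-0.24, SE 0.14, edgeR adjusted p = 0.553). The next kinase, Pmvk, was at 0.083 (SE 0.10). Mvd, the decarboxylase, had the lowest value of the branch with all libraries, -0.28 (SE 0.24), with 8.36, 6.88 and 9.27 CPM in knockouts 1 to 3, against 12.0, 11.5 and 6.41 CPM in controls 1 to 3. Control 3 was the lowest of all libraries for Mvd, whose log2 fold change was -0.52 without it and -0.13 without control 1.

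At the isoprenoid steps, Idi1, the isomerase, was at -0.026 (SE 0.12). Fdps, which makes farnesyl diphosphate, measured 22.2, 22.3 and 18.3 CPM in knockouts 1 to 3, against 18.1, 18.9 and 24.1 CPM in controls 1 to 3 (Entrez 110196; chromosome 3, 89093588 to 89101967). The order of the libraries was mixed, and Fdps differed by 0.037 on the log2 scale (SE 0.14, edgeR adjusted p = 0.939). Of its 50-base words, 26.2% occur in other genes, chiefly Gm43738, which makes its count uncertain, as do the 30.4% of Acaca, the 22.9% of Me1 and the 17.7% of Idi1. Fdft1, which commits farnesyl units to squalene, measured 67.4, 61.5 and 78.1 CPM in knockouts 1 to 3, against 81.1, 73.6 and 81.0 CPM in controls 1 to 3 (Entrez 14137; chromosome 14, 63145150 to 63181687). Knockout 3 lay above control 2, so the groups overlapped (-0.19, SE 0.11, edgeR adjusted p = 0.542). Its exons share 774 bases with Ctsb on the opposite strand in GENCODE M21, and whether counting used the strand is not given in the sources used here. The same holds for Hmgcs1, Acss2, Lss, Idi1, Cyp51, Agpat2, Elovl1, Elovl6 and Me1, whose exons share 30 to 557 bases with a gene on the opposite strand.

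From squalene to cholesterol, Sc5d, a desaturase of the sterol ring, was the 1 sterol gene whose groups did not overlap (Entrez 235293; chromosome 9, 42251592 to 42264300). It measured 19.2, 19.9 and 18.8 CPM in knockouts 1 to 3, against 20.5, 21.7 and 20.8 CPM in controls 1 to 3. The separation was small, with knockout at 91.9% of the control mean (log2 fold change -0.12, SE 0.075, edgeR adjusted p = 0.581). Sqle, at 48 to 98 counts in knockout and 49 to 79 counts in control libraries, had the widest SE of the branch (-0.043, SE 0.36). Lss, which closes the ring of lanosterol, was at 0.18 (SE 0.18), and the demethylase Cyp51 was at 0.0038 (SE 0.13). Hsd17b7, a ketoreductase, had the highest value of the branch with all libraries, 0.28 (SE 0.20), averaging 16.4 ± 4.42 CPM in knockout and 13.5 ± 1.64 CPM in control muscle. Without knockout 2 it was at 0.070, below Pmvk at 0.16. Nsdhl, a sterol dehydrogenase, was at 0.0086 (SE 0.11), and Ebp, the sterol isomerase, at 0.096 (SE 0.12). Dhcr7, the reductase of a last step to cholesterol, was at -0.017 (SE 0.15).

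Averaging the centred log2 CPM of a branch gives one value per library. For the fatty acid branch the values were -0.15, -0.034 and 0.0093 in knockouts 1 to 3, against -0.020, 0.057 and 0.14 in controls 1 to 3. For the triglyceride branch they were 0.069, -0.0064 and 0.10 in knockouts, against -0.079, 0.0019 and -0.086 in controls. For the sterol branch they were 0.014, 0.022 and -0.059 in knockouts, against 0.036, -0.027 and 0.014 in controls. In all 3 branches the groups overlapped. The median log2 fold change of the fatty acid branch was -0.057 without control 3, -0.099 without control 2 and -0.12 without knockout 1. That of the triglyceride branch was 0.030 without control 3 and turned to -0.036 without knockout 3. That of the sterol branch turned to 0.049 without control 3 and to 0.017 without knockout 3.

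**Figure D4:**
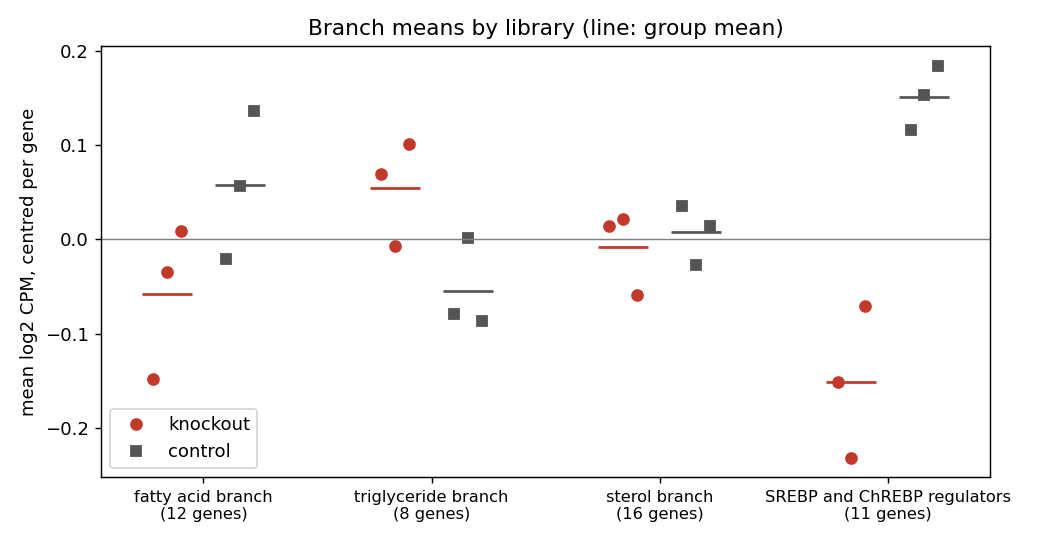
Mean log2 CPM, centred per gene, of each branch and of the SREBP and ChREBP regulators in every library, knockouts as circles left of controls as squares, with lines at group means. The 3 enzyme branches overlap between groups, and the regulators lie between -0.23 and -0.071 in knockouts and between 0.12 and 0.18 in controls. The regulator mean includes Srebf1 and Insig1, at log2 fold changes of -1.17 and -0.78. Over the 11 regulators the log2 fold change has a mean of -0.30 and a median of -0.18.

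Among regulators of these routes, 1 passed the test. Of 11 genes of SREBP processing, ChREBP and the liver X receptors, 10 were negative by sign (median -0.18), against 50.7% of all tested genes. In 6 of them, all negative, the groups did not overlap, against 17.3% of all tested genes. This list was chosen with earlier results of these data known, so its counts are a description and not a test. Insig1, which holds SREBPs in the endoplasmic reticulum and is itself an SREBP target, was the one that passed. It fell to 10.1, 9.63 and 10.6 CPM in knockouts 1 to 3, against 17.2, 17.4 and 17.5 CPM in controls 1 to 3 (-0.78, SE 0.083, edgeR adjusted p = 0.0421). That call was lost under limma-voom (adjusted p = 0.0526), with the replicate number as a block (0.275), and without any single library other than knockout 3 (0.0961 to 0.266). Over all alternatives the adjusted p of Insig1 ran from 4.15e-09 to 0.319. Srebf1, named after its values were seen, measured 51.6, 41.6 and 56.8 CPM in knockouts, against 95.7, 101 and 141 CPM in controls (-1.17, SE 0.18, edgeR adjusted p = 0.133). DESeq2 called Srebf1 (adjusted p = 1.18e-07), and its adjusted p ran up to 0.486 over the alternatives. The groups did not overlap for Srebf1. Fasn, Acaca, Scd1 and Pnpla3, which SREBP-1c induces in liver, overlapped between groups, at -0.27, -0.21, -0.31 and -0.42 on the log2 scale. These are only some of the genes of those routes, and all are negative. The 20 fatty acid and triglyceride genes ran from -0.57 to 0.65, 14 negative and 6 positive. Elovl6 and Gpam were near 0, at -0.063 and -0.033, and Elovl5 and Lpin1 were positive, at 0.33 and 0.29. Whether any of these genes follows Srebf1 was not tested. Srebf2, the sterol regulator, averaged 17.1 ± 1.83 CPM in knockout and 19.5 ± 1.15 CPM in control muscle (-0.18, SE 0.10, edgeR adjusted p = 0.545).

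Further genes of the 3 routes were counted in the same way. Of 21 further fatty acid synthesis genes tested, 10 were positive and 11 negative (median -0.056), of 14 further glycerolipid genes 10 and 4 (median 0.086), and of 17 further sterol synthesis and uptake genes 6 and 11 (median -0.095). Of all tested genes, 50.7% were negative. None of the further genes passed by edgeR, DESeq2 or limma-voom after adjustment. Before it, 1, 0 and 2 had an edgeR p under 0.05 (4.76%, 0% and 11.8%), against 11.6% of all tested genes. The smallest p among further sterol genes was that of Ggps1. This enzyme, which makes geranylgeranyl diphosphate from the product of Fdps, measured 16.4, 14.7 and 14.7 CPM in knockouts, against 19.8, 20.7 and 18.9 CPM in controls (-0.37, SE 0.088, edgeR adjusted p = 0.270). Among further fatty acid genes the smallest p-values were those of Mecr, of mitochondrial fatty acid synthesis (0.25, SE 0.084, edgeR adjusted p = 0.363), and Mid1ip1, a partner of Spot 14 and activator of acetyl-CoA carboxylase (-0.63, SE 0.28, adjusted p = 0.446). Among glycerolipid genes they were the acyltransferase Agpat4 (0.52, SE 0.23, adjusted p = 0.443) and the lipid phosphatase Plpp3 (0.24, SE 0.14, adjusted p = 0.557).

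Adipocyte marker levels differed among the libraries of each group. Adipoq, the adipocyte hormone adiponectin, measured 9.95, 28.7 and 7.58 CPM in knockouts 1 to 3, against 9.49, 5.20 and 21.3 CPM in controls 1 to 3. Knockout 2 and control 3 were the highest of their groups for Adipoq, as they were for Scd1, Thrsp and Fasn and for 7 of the 11 adipocyte markers tested. By sign, 9 of the 11 markers were positive and 2 negative, against 49.3% positive over all tested genes. None passed by edgeR or limma-voom. Before adjustment 2 (18.2%) had an edgeR p under 0.05, against 11.6% of all tested genes. DESeq2 called 1, Lep, lower, against a background of 2.03%. The summed level of the whole list, most of it Lpl, ran the other way, at 1196, 1144 and 1253 CPM in knockouts 1 to 3, against 1180, 1257 and 736 CPM in controls 1 to 3. By that sum knockout 2 and control 3 were the lowest of their groups. Leaving out Lpl and Fabp4, which other cells of muscle also express, a choice made after seeing the values, it was 88.5, 263 and 82.3 CPM in knockouts 1 to 3, against 79.5, 45.7 and 192 CPM in controls 1 to 3. Ucp1, the marker of brown fat, was at 0 counts in all libraries. Of the 36 enzymes, 12 were highest in knockout 2 among knockouts and in control 3 among controls, 4 of them fatty acid, 2 triglyceride and 6 sterol genes, against 17.6% of all tested genes. Without knockout 2 and control 3 no enzyme was called by edgeR, and the branch medians were -0.17, 0.084 and 0.0022. Scd1 was then at -0.44, Fasn at -0.17 and Thrsp at 0.24. The part of adipocyte RNA in these values was not tested.

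**Figure D5:**
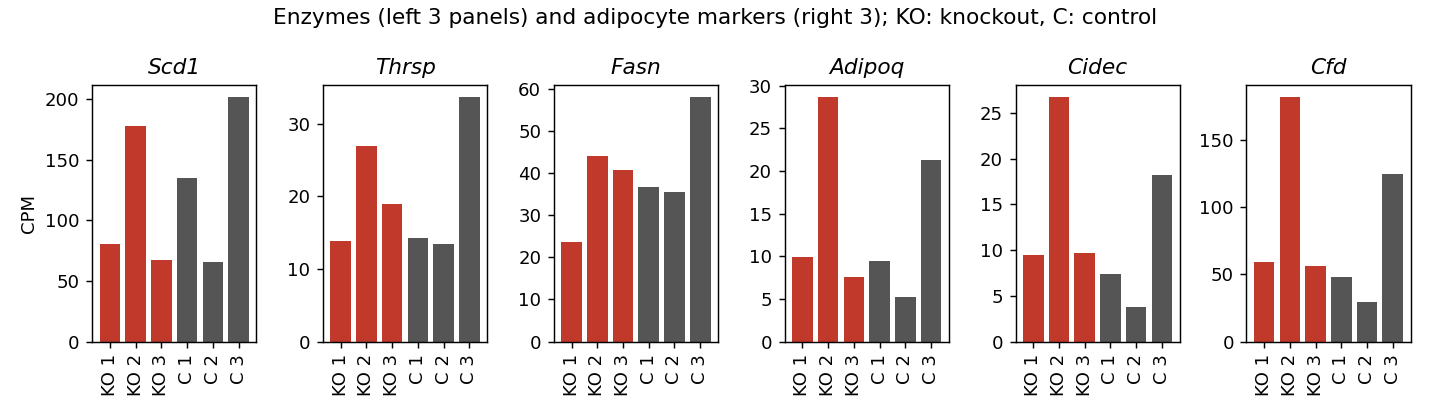
CPM in each library (bars from 0, knockouts left of controls) of the enzymes Scd1, Thrsp and Fasn and of the adipocyte markers Adipoq, Cidec and Cfd. Knockout 2 and control 3 are the highest of their groups in all 6 panels, with Adipoq at 28.7 and 21.3 CPM. Only 12 of the 36 enzymes and 7 of the 11 adipocyte markers tested have this order, so the panels do not stand for the rest.

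Slow fibre markers also differed among libraries. The summed level of 9 slow fibre markers was 723 to 1781 CPM in knockouts and 175 to 1506 CPM in controls, the lowest being control 3. Dgat2, Acss2, Acaca, Fads2, Gpam and Mvd shared the order of these markers at its ends, highest in knockout 3 among knockouts and lowest in control 3 among controls. That made 6 of 36, or 16.7%, against 17.8% of all tested genes. Schwann cells, which make sterols for myelin, were represented by 8 markers, all negative by sign, against 50.7% of all tested genes. Of these markers, 0 were called by edgeR, DESeq2 or limma-voom. Before adjustment 0 had an edgeR p under 0.05, against 11.6% of all tested genes. The 8 markers summed to 47.8 to 258 CPM in knockouts and 76.0 to 206 CPM in controls. Their part in the enzyme values was not tested. Fibroblast markers were positive in 8 of 9, macrophage markers in 7 of 8 and endothelial markers in 2 of 6, against 49.3% of all tested genes. None was called by edgeR or limma-voom. Before adjustment 3, 1 and 0 had an edgeR p under 0.05 (33.3%, 12.5% and 0%), against 11.6% of all tested genes. DESeq2 called 1 of these markers, Col3a1, higher, against a background of 2.03%.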

How the data were processed

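RNA from 6 gastrocnemius muscles was sequenced as poly(A)-selected, strand-preserving libraries, 1 per mouse. The authors deposited a read count for each gene, named so in the column headers, and these values are whole numbers whose totals differ between libraries. The authors also deposited FPKM, used here for levels between genes, and TPM, which was not used. The build was mm10, and StringTie 1.3.4d, Bowtie2 2.3.4.1, FastQC 0.11.7 and bcl2fastq 2.20.0 are listed, without roles, in the submitters' processing notes. How reads were counted is not given in the sources used here.

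Counts were tested with edgeR 4.0.16 in R 4.3.3 (filterByExpr with a minimum count of 10, TMM, quasi-likelihood test, Benjamini-Hochberg adjustment over 14109 genes, threshold 0.05). Intervals are 95% from the same fit. A prior count of 2 went into log2 CPM. The test was run on simulated data with known changes as a check of the code, and its power is not given here. No library repeated another of its group: their counts differed with a chi-square of at least 33.6 for each degree of freedom. A gene with 0 counts could hold up to 3, or 0.0454 to 0.0598 CPM by library, for counting error only.

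Members and lists were chosen with earlier results of these data known. Full values are given for members with an unadjusted p under 0.05, without overlap, or among the 2 most abundant of a branch. Outside these conditions, they are also given for Dgat2 and Mvd. Of other lists, called genes are named, or else the 2 of smallest p. One gene that this rule names is not reported here. Promoters are given for up to 4 members with a motif and the smallest p. Protein sequences were not used here. Alternatives were DESeq2's size factors, no filter, DESeq2 1.42.0, limma-voom (limma 3.58.1), a replicate block and leaving out libraries.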

Additional observations from a re-analysis of the deposited data

How the results depend on the processing

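No enzyme was called by edgeR at an adjusted p under 0.05 under any scaling, filter, replicate block or omission of libraries, and limma-voom called 0; DESeq2 called 1 higher. Genes called higher and lower over the whole table were 195 and 72 with DESeq2, 4 and 1 with limma-voom, 0 and 0 with the replicate block, and 1 and 0 with control 3 and knockout 2 both left out, an alternative chosen after seeing the data. Without single libraries they ran from 1 to 120 and from 0 to 21, the highest without knockout 3. Same-numbered mice did not deviate together (correlations -0.0082, -0.19 and -0.098), so the numbers were not taken to pair them. Branch medians ran without single libraries from -0.26 to -0.057 (fatty acid), -0.036 to 0.095 (triglyceride) and -0.027 to 0.049 (sterol). Of 36 enzymes, 19 kept their sign in all 12 alternatives.

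The other 17, none called, changed sign in at least 1. Agpat2 was at 0.00084 with DESeq2's size factors and 0.00024 with DESeq2. With limma-voom Thrsp was at 0.0034, Sqle at 0.032, Cyp51 at -0.0047 and Nsdhl at -0.00092, and with the replicate block Thrsp was at 0.038. With control 3 and knockout 2 both left out, Elovl6 was at 0.18, Thrsp at 0.24, Gpam at 0.010, Agpat2 at 0.16, Lpin1 at -0.23 and Dhcr7 at 0.087. Without single libraries the log2 fold changes ran from -0.86 to 0.11 for Scd1, -0.22 to 0.19 for Elovl6, -0.33 to 0.054 for Acss2, -0.32 to 0.52 for Thrsp, -0.19 to 0.058 for Gpam, -0.11 to 0.13 for Agpat2, -0.11 to 0.039 for Dgat1, -0.093 to 0.47 for Dgat2 and -0.11 to 0.62 for Lpin1. In the sterol branch they ran from -0.23 to 0.057 for Acat2, -0.091 to 0.030 for Hmgcs1, -0.099 to 0.040 for Idi1, -0.045 to 0.18 for Fdps, -0.31 to 0.21 for Sqle, -0.069 to 0.063 for Cyp51, -0.096 to 0.13 for Dhcr7 and -0.058 to 0.071 for Nsdhl. The cause was not tested. Usp21 kept its direction in all 12, with adjusted p up to 0.271.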
